A study of Homo sapiens with 4 samples.

Results

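The EGFR family and its ligands were examined in FaDu cells through 10 genes: the receptors EGFR, ERBB2 and ERBB3, the ligands EGF, AREG, EREG, HBEGF, TGFA and BTC, and the receptor inhibitor ERRFI1. All 10 were found by symbol among the 25548 gene symbols of the deposited expression table. FaDu is an established squamous carcinoma line from a tumour of the hypopharynx. One library came from cells given vehicle, labelled DMSO only, and 1 library from cells given 5 µM 5-aza-2'-deoxycytidine (Aza) on days 1 to 3 and 100 nM trichostatin A (TSA) on day 3. Aza is a nucleoside that depletes active DNA methyltransferases as it enters DNA, and TSA blocks histone deacetylases. Vehicle was DMSO for Aza and ethanol for TSA in the protocol, while the control's label names DMSO alone. The drugs were given together, so the part of each in a difference cannot be told apart. With 1 library per group no difference below has a replicate error or a p-value.

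The receptors of this family are tyrosine kinases that pair when a ligand binds and then signal through RAS and ERK and through PI3K and AKT. EGFR binds EGF, AREG, TGFA, HBEGF, BTC and EREG, which are made as membrane-bound precursors and released by proteases. ERBB2 has no known ligand and acts as the preferred partner of the others, and ERBB3 binds neuregulins and has little kinase activity of its own. In squamous epithelium EGFR and its ligands drive the growth and migration of basal cells, and EGFR is commonly abundant in head and neck carcinomas. ERRFI1, also known as MIG6, binds the EGFR kinase and blocks it, and its gene is itself turned on by EGFR signalling.

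Expression was in FPKM, fragments scaled for transcript length and library size, so that levels of different genes can be set side by side. The squamous markers KRT5, KRT14, KRT6A, KRT17, TP63, SFN, EPCAM and CDH1 were all above 1 FPKM in both libraries, with a summed level of 2350 and 2190 FPKM. Their levels were not alike between libraries: KRT5 was 687 and 226 FPKM and TP63 73.7 and 23.2, while KRT14 was 49.8 and 147. Of 6 leukocyte, 5 endothelial and 6 fibroblast markers, 4, 5 and 6 were under 1 FPKM in the DMSO library and 4, 4 and 5 in the treated library. PTPRC, the pan-leukocyte marker, was at 0.0513 FPKM with DMSO and 0.0385 with Aza/TSA. KDR was listed at 0 in both. The summed level of the leukocyte list was 14.7 and 56.3 FPKM in the DMSO and treated libraries, most of it CD68, a lysosomal gene that other cells also express. Of the same 3 lists, 2, 3 and 4 genes were listed at 0 with DMSO and 0, 1 and 0 with Aza/TSA. The summed endothelial list was 0.943 and 3.89 FPKM and the fibroblast list 0.794 and 3.65 FPKM. The part of these genes in the results below was not tested. FPKM do not give read numbers, so the depth behind each value is unknown. For 282 genes between 0.001 and 0.05 FPKM in both libraries, treated to DMSO ratios were divided by a common scale of 0.999853. Over a wide range of scales, the largest share equal to a ratio of whole numbers up to 6 within 0.01% was 69.5%. The median share over that range was 0%. The quoted scale was picked from a narrower part of the range because it gave the largest share there. The UMSCC47 columns of the table were not used, because the part examined was set to the FaDu columns alone. They also did not follow the row names. Their Spearman correlation across rows was 0.110 to 0.121 with the FaDu columns and 0.124 with each other. Between the FaDu columns it was 0.908.

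The starts of 5 genes are shown because the widest receptor differences (EGFR and ERBB2) and the row of neighbouring ligand genes on chromosome 4 (EPGN, EREG and AREG) are described below. Each is the RefSeq promoter window of 300 bases, 250 before and 50 after the first listed start, on GRCh38.p14. Capitals mark CG dinucleotides, the sites where DNA can be methylated.
EGFR (chr7:55018767-55019066, plus strand): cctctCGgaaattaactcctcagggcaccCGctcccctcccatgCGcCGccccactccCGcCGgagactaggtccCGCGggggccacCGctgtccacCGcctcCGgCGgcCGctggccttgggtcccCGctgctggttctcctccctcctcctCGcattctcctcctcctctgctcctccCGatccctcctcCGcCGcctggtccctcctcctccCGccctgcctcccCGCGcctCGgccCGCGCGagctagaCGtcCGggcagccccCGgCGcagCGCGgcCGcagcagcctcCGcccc
ERBB2 (chr17:39687844-39688143, plus strand): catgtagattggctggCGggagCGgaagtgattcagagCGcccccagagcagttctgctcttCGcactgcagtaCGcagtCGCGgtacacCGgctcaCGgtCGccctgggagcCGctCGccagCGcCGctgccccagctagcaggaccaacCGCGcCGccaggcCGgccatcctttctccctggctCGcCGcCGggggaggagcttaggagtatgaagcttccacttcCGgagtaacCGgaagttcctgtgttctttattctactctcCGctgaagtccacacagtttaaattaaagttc
EPGN (chr4:74308220-74308519, plus strand): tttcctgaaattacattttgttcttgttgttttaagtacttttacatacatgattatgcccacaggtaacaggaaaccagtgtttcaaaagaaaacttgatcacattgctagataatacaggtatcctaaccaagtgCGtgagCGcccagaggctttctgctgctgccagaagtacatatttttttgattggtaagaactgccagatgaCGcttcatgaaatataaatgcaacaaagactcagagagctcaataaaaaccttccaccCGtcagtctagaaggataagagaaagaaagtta
EREG (chr4:74364895-74365194, plus strand): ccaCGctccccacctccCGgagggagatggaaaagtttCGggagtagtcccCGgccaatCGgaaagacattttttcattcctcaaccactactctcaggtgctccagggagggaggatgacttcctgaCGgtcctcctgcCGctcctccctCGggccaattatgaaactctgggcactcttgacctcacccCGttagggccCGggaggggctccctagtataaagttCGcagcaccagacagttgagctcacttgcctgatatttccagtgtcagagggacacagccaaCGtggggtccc
AREG (chr4:74444886-74445185, plus strand): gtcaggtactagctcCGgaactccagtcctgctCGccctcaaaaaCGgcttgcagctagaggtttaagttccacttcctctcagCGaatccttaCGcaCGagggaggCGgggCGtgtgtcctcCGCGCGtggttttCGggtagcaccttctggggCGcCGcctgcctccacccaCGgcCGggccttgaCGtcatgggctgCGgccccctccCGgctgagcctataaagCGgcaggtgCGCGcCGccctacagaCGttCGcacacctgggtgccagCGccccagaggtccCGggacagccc
RefSeq windows were matched by symbol for 9 of the 10 members, and ERBB3 was not matched. The EGFR window held 33 CG dinucleotides, more than 82.8% of 35116 promoter windows, and the ERBB2 window 24, more than 66.1%. The AREG window held 27, the EREG window 12 and the EPGN window 4, where the median window held 14. Among the other members the first windows held 47 in ERRFI1, 38 in HBEGF, 30 in TGFA, 12 in BTC and 4 in EGF. A second listed EGFR start had 1 and a second TGFA start 22. Motifs were searched on both strands. The cyclic AMP response element TGACGTCA occurred once in the AREG window, in no other window of the members or of EPGN, and in 1.85% of all windows. The TATA motif TATAAA was in the first windows of AREG, EREG and EPGN and in 11.5% of all windows. The GC box GGGCGG was counted 3 times in the first EGFR window, 5 times in HBEGF and 4 times in the first TGFA window and once each in AREG, BTC and ERRFI1, and was in 45.0% of all windows. The ERBB2 window had no match to these 3 motifs nor to the AP-1 motif TGAGTCA, which was in 4.95% of all windows and, among the members, in the EGF window and that of the second EGFR start. DNA methylation was not measured in these libraries.

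None of the 9 members above 1 FPKM in both libraries reached a 2-fold difference between them. EGF, under 1 FPKM in both, had a raw ratio of treated to DMSO of 3.12, which rests on levels near 0. EGFR, EREG and ERRFI1 were 1.55-fold to 1.78-fold lower in the treated library, and ERBB2, TGFA and HBEGF were 1.58-fold to 1.84-fold higher. AREG, ERBB3 and BTC were within 1.5-fold. Differences are given as log2((treated FPKM + 1)/(DMSO FPKM + 1)), a scale that understates the change of low genes, and genes reaching 1 FPKM in one or the other library are called measured. By this rule 9 of the 10 members were measured, each above 1 FPKM with and without treatment, and EGF was not. Of the 9, none was at least 2-fold higher and none at least 2-fold lower, where 16.1% of all 13558 measured genes were higher and 5.21% lower. Over genes reaching 1 FPKM in both libraries, as the 9 members did, these shares were 10.9% and 4.85%. After correction for GC content, described below, no measured member was past 2-fold either. Of the 11566 measured genes with a GC value, 7.41% were then higher and 4.49% lower. At 1.5-fold, 3 members were higher and 3 lower, against 30.7% and 16.1% of all measured genes. None of the other settings tried moved a measured member past 2-fold.

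**Figure D1:**
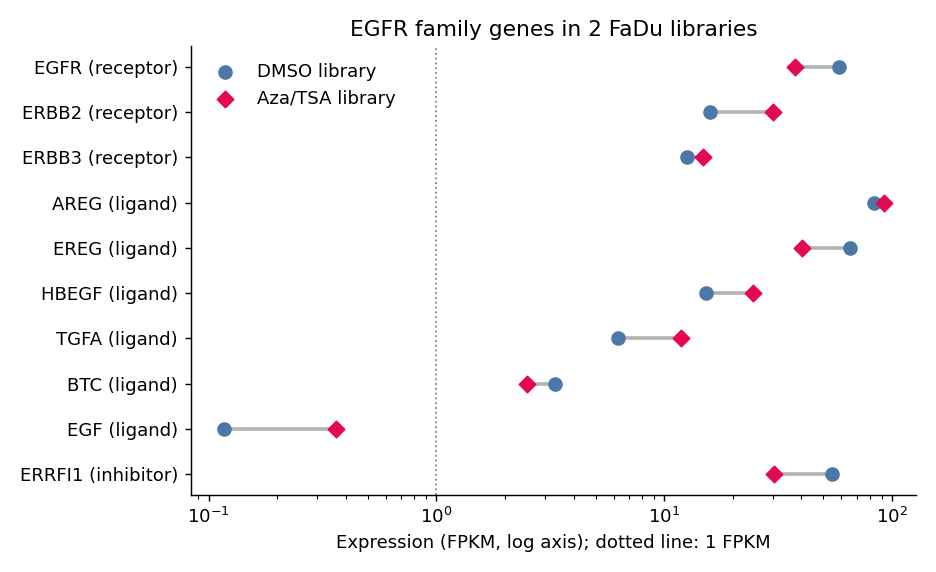
Level of each of the 10 genes in FPKM (log axis) in the DMSO library (circles) and the Aza/TSA library (diamonds), 1 library each, joined by a grey line. EGFR, EREG, BTC and ERRFI1 lie to the left after treatment and the other 6 to the right, and EGF alone is under 1 FPKM in both.

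Among the receptors, EGFR was the highest in each library, followed by ERBB2 and ERBB3. EGFR, the receptor of most ligands in this family, was 58.6 FPKM with DMSO and 37.5 with Aza/TSA, a log2 difference of −0.63. Its level in the DMSO library was above that of 91.6% of measured genes, and its difference was higher than that of 14.5% of them. EGFR was thus lower in the treated library, where it was still the highest of the receptors. ERBB2, the partner receptor without a ligand, was 15.8 FPKM and 30.0 FPKM, a log2 difference of 0.88, higher than that of 80.1% of measured genes. ERBB3, the neuregulin receptor, was 12.6 and 14.8 FPKM (log2 difference 0.22). The ratio of EGFR to ERBB2 was 3.70 with DMSO and 1.25 with Aza/TSA. EGFR made up 67.3% and 45.5% of the summed FPKM of the 3 receptors, and ERBB2 18.2% and 36.5%. The sum itself was 87.1 FPKM with DMSO and 82.4 with Aza/TSA. So, on FPKM without GC correction, the receptor makeup differed between the libraries more than the receptor total did. Neither was recomputed after the GC correction described below, where the log2 differences were −0.92 (EGFR), 0.19 (ERBB2) and −0.02 (ERBB3). ERBB4, the remaining receptor of the family, was 0.0102 and 0.0204 FPKM and was not measured by the rule above. In bulk RNA, fewer cells expressing a gene and less RNA per cell cannot be told apart.

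Differences in these libraries followed the GC content of transcripts, with a Spearman correlation of 0.67 across 6642 genes reaching 5 FPKM in both, so each member was also read after this trend was subtracted. The correlation is across genes of 1 pair of libraries. ERBB2 transcripts were the richest in GC of the 10 members, at 59.4%, and EREG transcripts the poorest, at 36.1%. After correction the ERBB2 log2 difference was 0.19 and that of EREG −0.06. EGFR, at 52.8% GC, moved from −0.63 to −0.92. ERRFI1, at 48.3%, was −0.83 before and −0.81 after. Without the trend, the difference of EGFR was therefore larger and that of ERRFI1 nearly as large, while those of ERBB2 and EREG were close to 0. Whether the trend is technical was not tested.

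**Figure D2:**
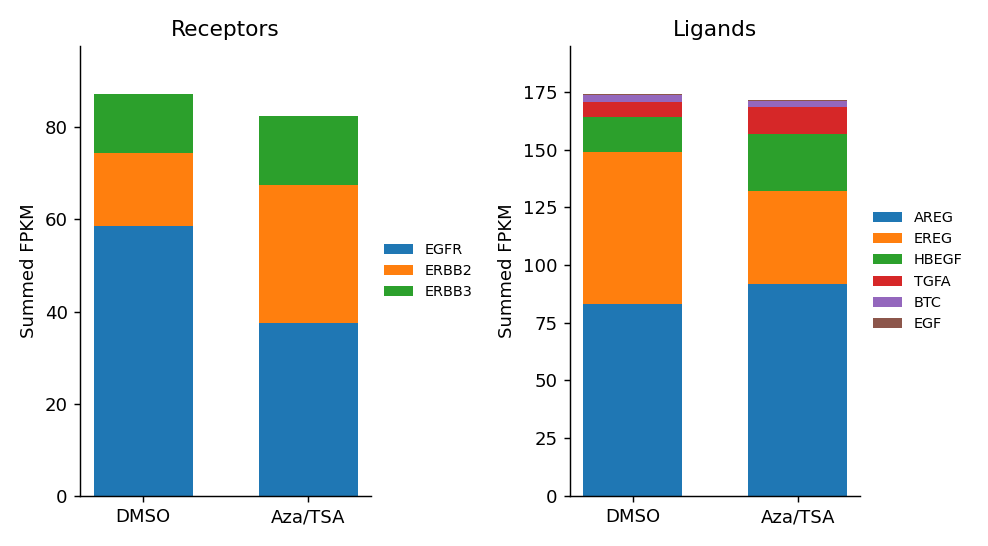
Summed FPKM of the 3 receptors (left) and of the 6 ligands (right) in the DMSO and Aza/TSA libraries, 1 library each, with each gene as a coloured segment. Without GC correction, both totals are close between libraries, at 87.1 and 82.4 FPKM for receptors and 174 and 171 for ligands. EGFR and EREG take smaller segments and ERBB2, HBEGF and TGFA larger ones in the treated library. Totals and segments were not recomputed after GC correction.

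The ligands kept the same order in both libraries, from AREG through EREG, HBEGF, TGFA and BTC to EGF. AREG (amphiregulin), a ligand of EGFR that keratinocytes make for themselves, was 83.3 FPKM with DMSO and 91.8 with Aza/TSA, a log2 difference of 0.14. EREG (epiregulin), which binds EGFR and ERBB4, was 65.7 and 40.2 FPKM, a log2 difference of −0.69. The pair supplied 85.7% of the summed FPKM of the 6 ligands with DMSO and 77.0% with Aza/TSA. HBEGF, a heparin-binding ligand of EGFR and ERBB4, was 15.2 and 24.6 FPKM (log2 difference 0.66). TGFA, transforming growth factor alpha, was 6.24 and 11.9 FPKM (log2 difference 0.83). HBEGF and TGFA together made up 12.4% of the summed ligands with DMSO and 21.3% with Aza/TSA. After GC correction HBEGF was at 0.51 and TGFA at 0.58, so both remained on the higher side. The ligand shares were not recomputed after this correction, which also moved AREG to 0.39 and EREG to −0.06. BTC (betacellulin) was 3.30 and 2.50 FPKM, with a log2 difference of −0.30 that was 0.15 after GC correction. EGF, the founding ligand of the family, was 0.116 and 0.363 FPKM. Its log2 difference was 0.29, and 1.10 with a pseudocount of 0.1, a value that rests on levels near 0. The 6 ligands summed to 174 FPKM with DMSO and 171 with Aza/TSA.

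The AREG value is uncertain on its own, because the table has a further row for AREGB, which RefSeq now lists as a synonym of AREG and older annotations held as a near-identical second copy. AREGB was listed at 95.8 FPKM with DMSO and 91.2 with Aza/TSA, so the AREG and AREGB rows differed in opposite directions. Added together they were 179 and 183 FPKM, a log2 difference of 0.03. With AREGB added to the 6 ligands, the ligand sum was 270 FPKM with DMSO and 263 with Aza/TSA, and HBEGF and TGFA made up 7.96% and 13.9% of it. Adding AREGB was chosen after seeing the data. AREG transcript level thus differed little between the libraries with either reading.

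AREG, EREG, BTC and EPGN are neighbours on chromosome 4, with no other protein-coding gene between them in the RefSeq table of GRCh38.p14. EPGN (epigen), a further EGFR ligand, was listed at 0 with DMSO and at 2.60 FPKM with Aza/TSA, and so passed the measuring filter through the treated library alone. From EPGN onward the order along the chromosome was EPGN, EREG, AREG and BTC, and the levels in the DMSO library were 0, 65.7, 83.3 and 3.30 FPKM. In the treated library they were 2.60, 40.2, 91.8 and 2.50 FPKM. Before GC correction, neighbouring ligand genes thus differed in different directions. After it the log2 differences were 2.06 (EPGN), −0.06 (EREG), 0.39 (AREG) and 0.15 (BTC), so only EREG was lower, by little. The EPGN window printed above was the one with the fewest CG dinucleotides of the 4. ERBB2 lies between PGAP3 and MIEN1 on chromosome 17, and these neighbours were looked up after the ERBB2 value was seen. They were also higher in the treated library, PGAP3 at 2.61 and 5.27 FPKM and MIEN1 at 31.8 and 61.3. EGFR lies between SEC61G (150 and 164 FPKM) and LANCL2 (7.16 and 8.21 FPKM) on chromosome 7. Both were higher in the treated library, where EGFR was lower. The neighbours of ERBB2 and EGFR were not read after GC correction, and a shared cause was not tested.

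**Figure D3:**
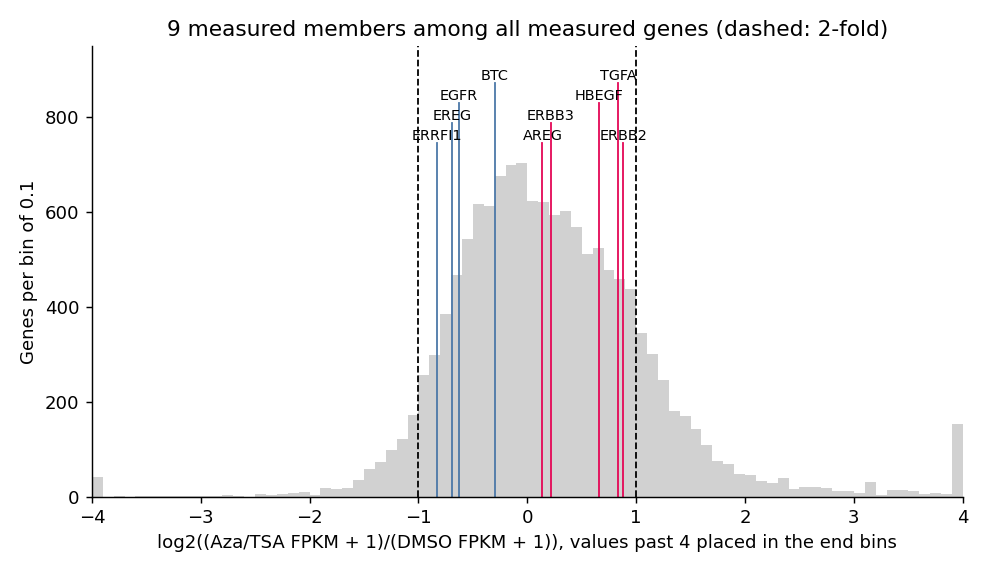
Histogram of the log2 difference of 13558 measured genes in bins of 0.1 (grey, values past 4 in the end bins), with a line for each of the 9 measured members and dashed lines at 2-fold. All 9 lie between the dashed lines, from ERRFI1 at −0.83 to ERBB2 at 0.88.

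ERRFI1, the intracellular inhibitor of EGFR, had the lowest log2 difference of the members before GC correction, and EGFR after it. ERRFI1 was 54.6 FPKM with DMSO and 30.2 with Aza/TSA, a log2 difference of −0.83, higher than that of 8.59% of measured genes. EGFR and its inhibitor were thus both lower in the treated library, and the ratio of EGFR to ERRFI1 was 1.08 and 1.24. After GC correction EGFR was lower by more than ERRFI1 was (−0.92 against −0.81), so the direction of this ratio reverses. Across the settings tried ERRFI1 ranged from −0.96 to −0.76 and EGFR from −0.92 to −0.58. HBEGF ranged from 0.51 to 0.69 and TGFA from 0.58 to 0.92. These 4 genes, like ERBB2, EREG and EGF, kept their direction under every setting tried for them, whereas AREG changed sign with length correction and ERBB3 and BTC with GC correction.

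**Figure D4:**
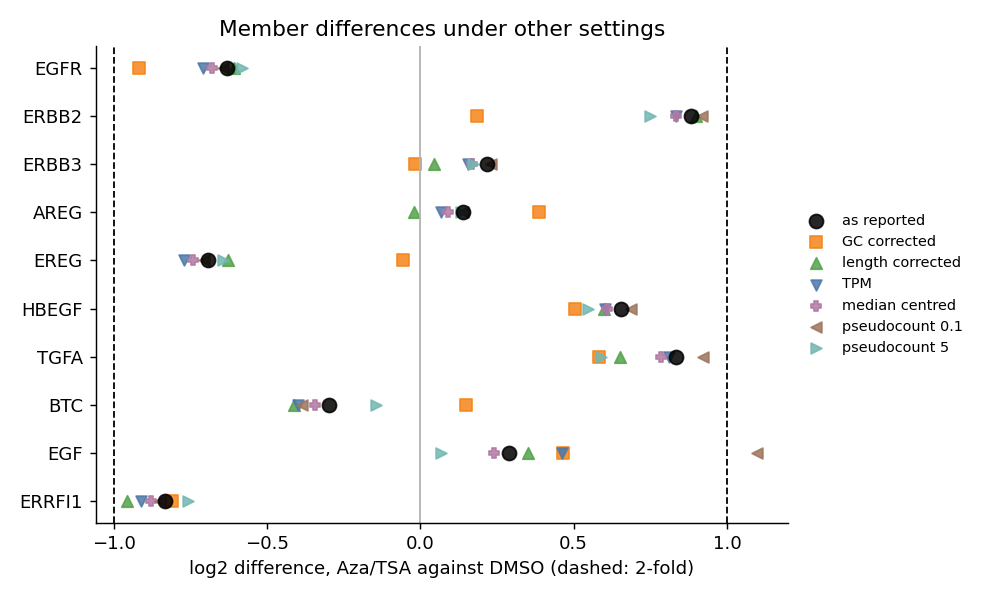
Log2 difference of each member as reported (black) and under 6 other settings (coloured symbols), with dashed lines at 2-fold. ERBB2 and EREG move most under GC correction, to 0.19 and −0.06, and EGF passes 2-fold only with a pseudocount of 0.1.

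With 2 libraries, the genes most like a member are those with the nearest pair of levels, measured as the distance between points of log2(FPKM + 1). For EGFR these were PPP2R5E (59.2 and 36.6 FPKM, distance 0.0361), SMARCE1 (56.8 and 38.2 FPKM, 0.0519) and ZC3HAV1 (61.0 and 37.1 FPKM, 0.0573). For ERBB2, the measured member with the widest difference as reported (ERRFI1, EGFR or TGFA under most other settings), they were NOC2L (15.8 and 30.1 FPKM, distance 0.00126), NAPA (15.8 and 30.0 FPKM, 0.00145) and SF3A1 (15.6 and 29.6 FPKM, 0.0300). A pair of levels from 2 libraries is little to go by, and no more is read from this likeness.

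Among the other receptors and ligands of the family, a gene was past 2-fold in each direction, both at low levels. Of 7 genes in that list 4 were measured, 1 of them at least 2-fold higher (EPGN, measured through the treated library alone) and 1 at least 2-fold lower, beside a background of 16.1% and 5.21%. The lower one was NRG4, a neuregulin that binds ERBB4, at 5.83 FPKM with DMSO and 1.14 with Aza/TSA, a log2 difference of −1.68. NRG1, the neuregulin best known as a ligand of ERBB3, was 4.94 and 2.07 FPKM (log2 difference −0.95, or −0.94 after GC correction). NRG2 was 0.272 and 0.0641 FPKM, and NRG3 was listed at 0 in both. NRG4 stayed past 2-fold after GC correction, at −1.45. With a pseudocount of 5 no gene of this list was past 2-fold. The median log2 difference was −0.51 over the measured genes and −0.07 over all 7, against 0.13 over all measured genes and 0.00 over all genes of the table.

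The list of genes of ligand shedding and trafficking, which holds regulators as well as proteases, had members on both sides. Of 13 in the list 11 were measured, 3 at least 2-fold higher and 2 lower, beside a background of 16.1% higher and 5.21% lower. The median was −0.16 over the measured genes and 0.05 over all 13. ADAM17, the main protease that sheds AREG, EREG, HBEGF and TGFA, was 14.9 FPKM with DMSO and 8.96 with Aza/TSA (log2 difference −0.67). ADAM10, which sheds EGF and BTC, was 38.4 and 22.3 FPKM (log2 difference −0.76). After GC correction they were at −0.36 and −0.65. These proteases were named for their role and not by the rule of widest difference. The widest differences were in FRMD8, a cofactor that keeps ADAM17 complexes stable, at 12.2 and 40.7 FPKM, and RHBDF1, an inactive rhomboid that carries ADAM17 to the surface, at 3.84 and 12.8 FPKM. RHBDL2, a rhomboid protease, was lower, at 6.75 and 1.79 FPKM, as was the tetraspanin TSPAN12, at 2.62 and 0.631 FPKM. TSPAN12 counted as measured through the DMSO library alone. With a pseudocount of 5 no gene of this list was 2-fold lower. After GC correction FRMD8 was at 0.72 and RHBDF1 at 0.63, so that no gene of this list was 2-fold higher, and RHBDL2 at −1.42 and TSPAN12 at −1.12.

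Of 25 genes of receptor inhibition and turnover 23 were measured, 5 at least 2-fold higher and none lower (median 0.25 over the measured genes and 0.11 over all 25). The background for such counts was 16.1% higher and 5.21% lower. SPRY4, an inhibitor of RAS and ERK signalling, was 0.653 FPKM with DMSO and 4.28 with Aza/TSA, a log2 difference of 1.68, or 1.15 after GC correction. Like VGF below, it counted as measured through the treated library alone. CBLC, a ubiquitin ligase of the CBL family, was 6.28 and 18.2 FPKM. HGS, which sorts ubiquitinated receptors toward lysosomes, was 29.2 and 73.6 FPKM, and the ubiquitin ligase STUB1 was 15.8 and 38.6 FPKM. These 3 were within 2-fold after GC correction, at 0.47, 0.43 and 0.37, where 1 gene of the list was higher and 1 lower (background 7.41% and 4.49%). The single lower gene after correction was SOCS3, named for that count, at 49.7 and 40.9 FPKM.

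All 30 genes of the signal relay were measured, and 5 were at least 2-fold higher and none lower (median 0.30), a count near the background of 16.1% higher and 5.21% lower. Of the 5, GAB2 and PIK3CD (0.286 and 1.63 FPKM) counted as measured through the treated library alone. SHC1, an adaptor that binds the activated receptor, was 24.8 FPKM with DMSO and 74.0 with Aza/TSA, with a log2 difference of 1.54 and 1.01 after GC correction. The kinase MAPK3 (ERK1) was 22.2 and 57.8 FPKM, the adaptor GAB2 0.315 and 1.80 FPKM, and the kinase SRC 10.1 and 22.1 FPKM. Their log2 differences were 1.34, 1.09 and 1.05, or 0.60, 0.68 and 0.37 after GC correction. SHC1 was then the only relay gene of the list past 2-fold, where 7.41% of measured genes with a GC value were higher and 4.49% lower.

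Of 20 genes known to be induced by ERK signalling 19 were measured, 5 at least 2-fold higher and 1 lower, where 16.1% and 5.21% of all measured genes were (median 0.66 over the measured genes and 0.63 over all 20). After GC correction there were 2 higher and 3 lower, where 7.41% and 4.49% of measured genes with a GC value were. The list median was then 0.25, against 0.01 over those measured genes, so the balance of directions depended on this correction. PLAUR, the urokinase receptor, was 3.68 FPKM with DMSO and 18.6 with Aza/TSA (log2 difference 2.07, or 1.56 after GC correction). EPHA2, an ephrin receptor, was 25.3 and 90.3 FPKM (1.79, or 1.05 after correction). VGF, a secreted neuropeptide precursor, was 0.0253 and 1.95 FPKM (1.53, or 0.40 after correction). MYC, the growth-promoting transcription factor, was the lower one, at 258 and 91.3 FPKM (−1.49, or −2.14 after correction). The early-response transcription factors EGR1 (463 and 310 FPKM) and FOS (829 and 591 FPKM), named for the count of 3 lower after correction, were then at −1.04 and −1.19. Members of this list thus lay on both sides, as did the family genes themselves.

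**Figure D5:**
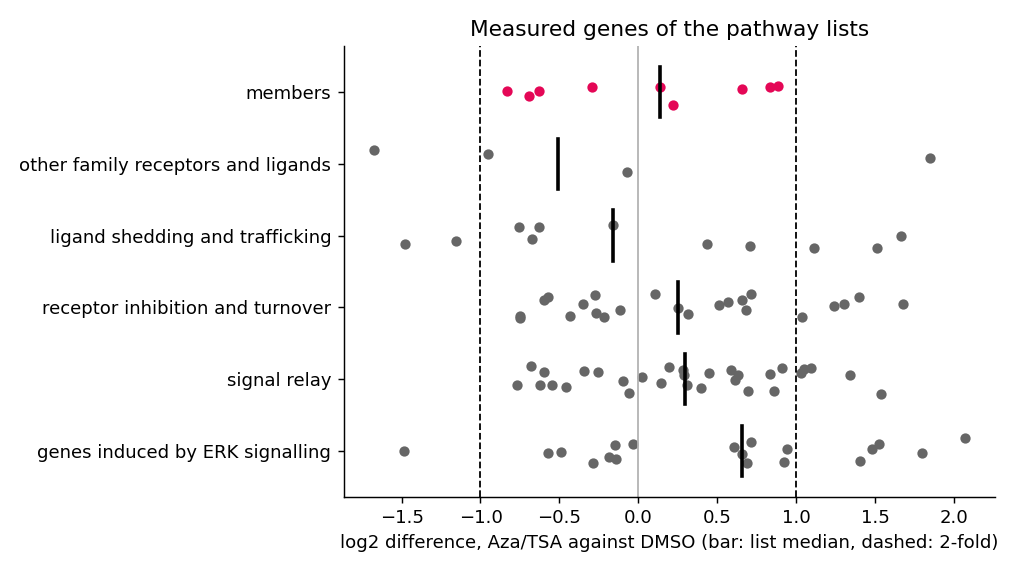
Log2 difference of each measured gene (points, spread vertically for visibility) in the 10 members and 5 pathway lists, with the median of each list as a black bar and dashed lines at 2-fold. The 9 measured members stay inside 2-fold, and each of the other lists, of 4 to 30 measured genes, has genes past it. Over genes reaching 1 FPKM in both libraries, 10.9% were at least 2-fold higher and 4.85% lower. With 9 genes, having none past 2-fold is not read as a trait of the family.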

How the data were processed

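Messenger RNA of FaDu cells was read from 1 stranded library per group, and groups came from the sample labels. The authors deposited FPKM per gene symbol, per the file headers, and the submitters' processing notes name TopHat 1.3.2, Cufflinks 2.0.2 and the build hg19. Which annotation was used, and whether libraries were scaled to each other, is not given in the sources used here. Here 45 repeated rows were summed, which left 25548 symbols. Differences used a pseudocount of 1 FPKM, a filter of 1 FPKM in either library and a 2-fold call, on log2 values. GC content and length were medians over GENCODE 29 transcripts, and lowess trends (statsmodels 0.14.6, fraction 0.3) were fitted on genes reaching 5 FPKM in both. GC values were found for 85.3% of measured genes. The others, with AREGB, NRD1 and ERBB2IP among them, are left out of GC-corrected counts and medians. The calls and trend step were tested on simulated data. Promoter windows were from RefSeq. All 10 members, all genes of the other family list, up to 4 measured genes with the widest difference per further list, and the 3 genes nearest EGFR and ERBB2 were to be named; others are marked. The members and lists were chosen with earlier results of these data known. Alternatives were other pseudocounts, filters, scalings and call thresholds, the highest row of each symbol, and GC or length correction.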

Additional observations from a re-analysis of the deposited data

How the results depend on the processing

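Of 258 values recomputed under other settings, 215 stayed the same. Some of these could not move, so 215 is not a measure of robustness. With a pseudocount of 1, a gene under 1 FPKM in both libraries cannot reach 2-fold, so counts without a filter were fixed. The highest row per symbol changed only the counts of all genes. A log2 value stayed if it kept its sign and its side of 2-fold and differed by at most 1.5-fold. A count stayed if it was equal to the reported count or within 1.5 times of it. The settings that moved something are these. With GC correction the log2 differences were 0.19 (ERBB2), −0.0157 (ERBB3), −0.0564 (EREG) and 0.15 (BTC). All genes higher then numbered 857, counted over the 11566 measured genes with a GC value. Shedding genes higher were then 0, turnover genes 1 higher and 1 lower, relay genes higher 1, and ERK-induced genes 2 higher and 3 lower. With length correction AREG was at −0.0208, and the other family list had 2 lower and a median of −1.07. With a pseudocount of 0.1 EGF was at 1.10, all genes lower numbered 1182 and the other family list had 2 lower. With a pseudocount of 5 all genes numbered 893 higher and 253 lower, other family genes 0 higher and 0 lower, shedding genes lower 0, turnover genes higher 3 and relay genes higher 2. Without a filter the shedding median was 0.0474. With a filter of 5 FPKM other family genes higher were 0, shedding genes lower 1 and relay genes higher 3. Scaled to TPM, all genes lower numbered 1152, other family genes lower 2 and turnover genes lower 1. At a 1.5-fold call there were 3 members higher and 3 lower, 4160 and 2187 of all genes, 2 other family genes lower, 5 shedding genes lower, 8 turnover genes higher and 3 lower, 12 relay genes higher and 4 lower, and 11 ERK-induced genes higher. With 1 FPKM required in both libraries, a setting added after seeing the data, 1261 of all genes were higher. Centring on the median (0.05 over 7372 genes) and using the highest row per symbol moved none of these. The cause of these moves was not tested, and the GC trend given with the members was only subtracted. Depth is unknown, so levels near 0, such as EGF, carry no stated precision. No paired analysis was possible because each group has 1 library.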
